A study of Mus musculus with 622 samples.

Results

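Values are given for 8 inhibitory receptor genes across single cells of the mouse pancreatic islet. They were the 5 somatostatin receptors Sstr1, Sstr2, Sstr3, Sstr4 and Sstr5, the alpha-2A adrenergic receptor Adra2a, the galanin receptor Galr1 and the neuropeptide Y receptor Npy1r. The members were chosen by name, as 8 of the 44448 genes in the table, and all 8 have a row in it. RNA came from 622 wild-type C57BL/6 islet cells, captured singly on the Fluidigm C1 system, a microfluidic chip that lyses each cell and amplifies its cDNA in a chamber of its own. No treatment, animal, age or chip is given in the labels, so the 622 cells count as 1 sample and no test between classes of cells was possible.

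All 8 genes encode G protein-coupled receptors that act through the Gi/o family. An active Gi/o alpha subunit inhibits adenylyl cyclase and so lowers cyclic AMP, while the released beta-gamma subunits open GIRK potassium channels and restrain calcium channels and exocytosis. In the islet, somatostatin from delta cells, noradrenaline and galanin from sympathetic nerves, and neuropeptide Y lower hormone secretion through such receptors. RGS proteins end the signal by speeding GTP hydrolysis, and receptor kinases and arrestins desensitise the receptor.

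Cells were classed by hormone RNA. A cell entered when 1000 or more genes reached 1 RPKM, a read count corrected for the length of the gene and the depth of the cell, which 593 of 622 did (95.3%). A cell was put in a class when 1 hormone held at least 90% of the summed RPKM of Ins1, Ins2, Gcg, Sst and Ppy. This gave 395 insulin cells, 33 glucagon cells, 13 somatostatin cells and 11 pancreatic polypeptide (PP) cells, and the other 141 passing cells were mixed. Markers outside the rule followed these classes. G6pc2, a beta cell phosphatase gene, averaged 1040 RPKM in insulin cells and 43.5, 2.63 and 2.49 RPKM in glucagon, somatostatin and PP cells. The alpha cell factor Irx2 averaged 12.3 RPKM in glucagon cells and 0.648 RPKM or less elsewhere. The delta cell factor Hhex averaged 259 RPKM in somatostatin cells, where Irx1 and Irx2 were listed at 0, and 2.74 RPKM or less elsewhere. For PP cells the marker list held only Ppy and Pyy. Recovered depth had a median of 1119228 reads per cell and ran from 2461 to 6111855. The columns came in 359 at full precision and 263 rounded to 4 decimals, a difference of number format that the labels do not mention, with median depths of 811202 and 1607350 reads. Members are given within each set where a result turned on it. At least 3 markers of a cell type outside the endocrine ones reached 10 RPKM in 19 insulin, 2 glucagon, 1 somatostatin and 4 PP cells.

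Sstr3 was the somatostatin receptor found most often, and it was found in every class. Sstr3 (Entrez ID 20607, chromosome 15, 78537014 to 78549365, minus strand, GRCm38) reached 1 RPKM in 213 of 395 insulin cells, or 53.9% (exact 95% interval 48.9 to 58.9%), in 9 of 33 glucagon cells (27.3%, 13.3 to 45.5%), in 2 of 13 somatostatin cells (15.4%, 1.92 to 45.4%) and in 1 of 11 PP cells (9.09%, 0.230 to 41.3%). These intervals cover the counting error over cells only. All cells are 1 sample with no animal or chip given, so cells are not replicates. In insulin cells Sstr3 had a lowest value of 0, a median of 1.46 and a highest of 131 RPKM, with a mean of 9.60, and 98 cells were above 10 RPKM. The 9 glucagon cells held 36.4, 36.2, 33.0, 15.4, 14.3, 7.26, 5.33, 4.46 and 3.04 RPKM, and the other 24 were below 0.33 RPKM. The 2 somatostatin cells held 71.8 and 30.4 RPKM, and the PP cell held 48.9 RPKM. Cells with the receptor in the smaller classes thus lay within the range of insulin cells.

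Class means of Sstr3 followed the order 9.60 RPKM in insulin, 7.98 in somatostatin, 4.76 in glucagon and 4.49 in PP cells. On the log2 scale of class means with a pseudocount of 1 RPKM, the differences from insulin cells were -0.24, -0.88 and -0.95 in somatostatin, glucagon and PP cells, all short of the 2-fold difference used for a call. The glucagon value differed between the column sets: in full-precision columns means were 7.91 in glucagon against 8.46 in insulin cells, with 7 of 17 glucagon cells at 1 RPKM, and in rounded columns they were 1.42 against 11.1, with 2 of 16. Without the highest cell of each class, the log2 differences from insulin cells became -1.49, -1.11 and -3.30 in somatostatin, glucagon and PP cells, so in the PP class a single cell held the level. Cells were also thinned to 250000 reads, which left out 4 insulin cells and 1 glucagon cell. Sstr3 then had at least 1 read in 62.9% of 391 insulin, 34.4% of 32 glucagon, 38.5% of somatostatin and 9.09% of PP cells. The somatostatin share thus depended on the cutoff of 1 RPKM.

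**Figure D1:**
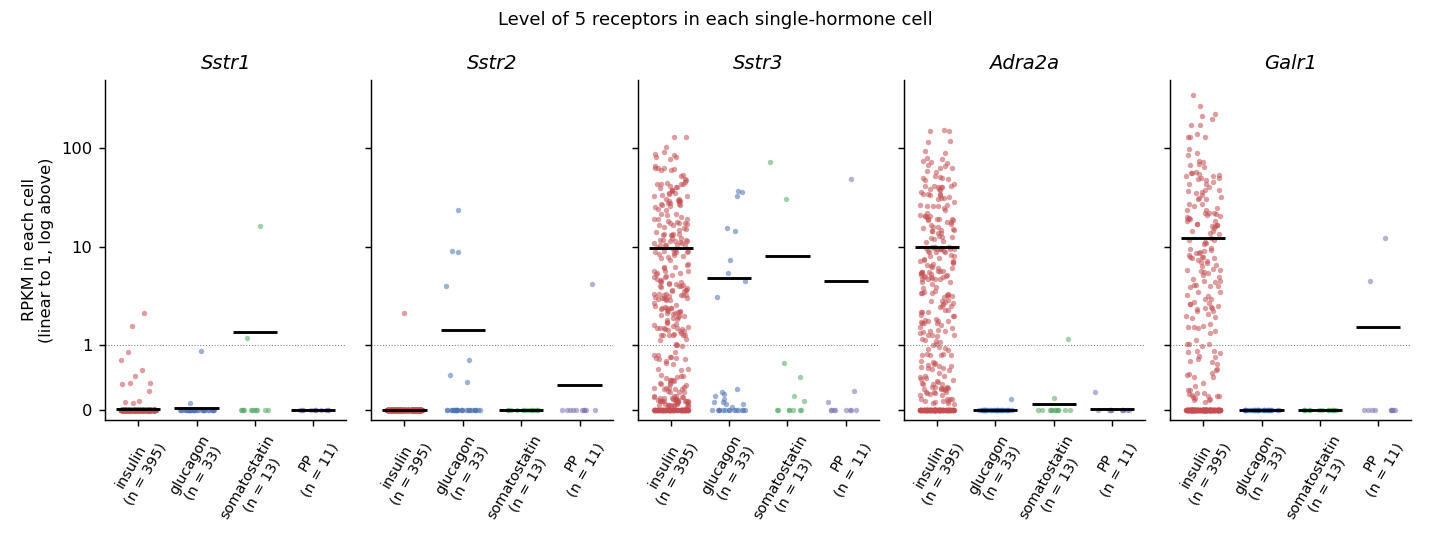
Level of Sstr1, Sstr2, Sstr3, Adra2a and Galr1 in each single-hormone cell. Each point is 1 cell, the vertical axis is RPKM (linear up to 1, logarithmic above), black lines are class means and the dotted line marks 1 RPKM. Sstr3 reaches 131 RPKM in insulin cells and appears in all 4 classes. Outside insulin cells, Adra2a is above 1 RPKM in 1 somatostatin cell only and Galr1 in 2 PP cells only. Insulin cells are 395 of the 452 cells shown.

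Sstr2, the receptor through which somatostatin is known to inhibit glucagon release, was rare and lay mainly in cells with glucagon RNA. Sstr2 (Entrez ID 20606, chromosome 11, 113619327 to 113626028, plus strand) reached 1 RPKM in 4 of 33 glucagon cells, or 12.1% (3.40 to 28.2%), with 23.4, 9.00, 8.72 and 3.92 RPKM from 42, 11, 19 and 13 reads. Another 3 glucagon cells held 0.763, 0.536 and 0.438 RPKM from 3, 1 and 1 reads. Only 1 of 395 insulin cells reached the cutoff, at 2.11 RPKM from 2 reads, and 1 of 11 PP cells did, at 4.18 RPKM. Sstr2 was listed at 0 in all 13 somatostatin cells. The glucagon mean was 1.42 RPKM against 0.00535 RPKM in insulin cells, a log2 difference of 1.27. All 4 glucagon cells above the cutoff were in full-precision columns, 4 of 17 against 0 of 16 in rounded columns, and without the highest cell the glucagon mean was 0.731 RPKM, below the 1 RPKM needed for a comparison. The PP cell was among those with markers of another cell type, whose part in the value was not tested. Over all passing cells Sstr2 reached 1 RPKM in 6 of 108 cells with at least 10% glucagon RNA (5.56%, 2.07 to 11.7%) and in 3 of 485 with less (0.619%, 0.128 to 1.8%). In mixed cells the 2 highest values, 41.1 and 33.0 RPKM, belonged to insulin and glucagon cells with 39.8% and 33.7% glucagon. Sstr2 overlaps Slc39a11 on the opposite strand, and without strand information reads of the overlap cannot be told apart.

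Sstr1 was found mainly where somatostatin RNA was. Sstr1 (Entrez ID 20605, chromosome 12, 58211421 to 58216037, plus strand) reached 1 RPKM in 2 of 13 somatostatin cells (15.4%), at 16.2 and 1.17 RPKM from 95 and 4 reads. It did so in 2 of 395 insulin cells, at 2.09 and 1.54 RPKM, in none of 33 glucagon cells, where the highest was 0.904 RPKM, and in no PP cell, all 11 of which were listed at 0. The class mean was 1.34 RPKM in somatostatin against 0.0210 RPKM in insulin cells, a log2 difference of 1.20, and against 0.0305 RPKM in glucagon cells, a log2 difference of 1.18. Both somatostatin cells were in full-precision columns, 2 of 6 against 0 of 7 in rounded columns, where the mean was 0. A single cell held 93.3% of the somatostatin sum, and without it the mean was 0.0977 RPKM. Among all 593 passing cells, mixed ones included, Sstr1 reached 1 RPKM in 11 of 51 cells with at least 10% somatostatin RNA (21.6%, 11.3 to 35.3%) and in 5 of 542 cells with less (0.923%, 0.300 to 2.14%). The highest level, 67.2 RPKM, was in a mixed cell with 61.5% somatostatin and 38.0% PP.

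Sstr4 and Sstr5 had almost no values above 0. Sstr4 (Entrez ID 20608, chromosome 2, 148395377 to 148396764, plus strand) was above 0 in 1 of 622 cells, a glucagon cell at 1.00 RPKM. Sstr5 (Entrez ID 20609, chromosome 17, 25489875 to 25497288, minus strand), a receptor known for inhibiting insulin release, was listed at 0 in all 622 cells. Whether the authors' gene models allowed reads to be assigned to Sstr5 cannot be settled from the table, so no limit on its share is drawn from these zeros.

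Adra2a, the receptor through which noradrenaline restrains insulin release, was present in about as many insulin cells as Sstr3. Adra2a (Entrez ID 11551, chromosome 19, 54045259 to 54048982, plus strand) reached 1 RPKM in 196 of 395 insulin cells, or 49.6% (44.6 to 54.7%). The lowest insulin cell was at 0, the median at 0.965 and the highest at 153 RPKM, with a mean of 9.97 RPKM, and the top 10% of cells held 64.3% of the sum. None of 33 glucagon cells reached the cutoff, so a share up to 9.09% is allowed, and their highest value was 0.174 RPKM from 1 read. In the 13 somatostatin cells the values were 1.14 RPKM in 1 cell, 0.186 RPKM in another and 0 in the rest. Among the 11 PP cells 1 was at 0.274 RPKM and the others at 0. Adra2a points above the cutoff thus belonged to insulin cells in all but 1 case. Log2 differences from insulin cells were -3.45, -3.32 and -3.42 in glucagon, somatostatin and PP cells. With classes set at 75% of 1 hormone, which admits more insulin RNA, the PP difference was -0.51, short of the 2-fold threshold. The insulin share was 53.1% in full-precision and 45.0% in rounded columns, and at 250000 reads a read was found in 52.9% of insulin cells and in 0 of 32 glucagon, 0 of 13 somatostatin and 0 of 11 PP cells.

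The value for somatostatin cells depended on how such cells were defined. Cells led by somatostatin that carried more Ppy RNA were mixed under the 90% rule. After the mixed cells had been seen, cells were also classed by their leading hormone among those with under 10% insulin RNA. This added 11 cells to the 13 somatostatin cells, and Hhex reached 1 RPKM in all 11 added cells. Whether each of these 11 was 1 cell or 2 captured together was not tested. In the 24 somatostatin-led cells Adra2a reached 1 RPKM in 6 (25.0%, 9.77 to 46.7%), at 172, 95.3, 47.9, 18.1, 1.14 and 1.06 RPKM. In the cells from 18.1 to 172 RPKM, PP made up 25.2 to 39.3% of hormone RNA. Each column set held 3 of these 6 cells, and 5 of them were without markers of cell types outside the endocrine ones. Insulin made up 0.435 to 9.06% of hormone RNA in these 6 cells, against 0.368 to 2.84% in the other 18. G6pc2 was at a median of 4.00 RPKM, and at most 156 RPKM, in the 6 cells, against a median of 2.02 RPKM in the others and a mean of 1040 RPKM in insulin cells. The mean of Adra2a over the 24 cells was 14.0 RPKM, or 7.12 RPKM without the highest cell, and the log2 difference from insulin cells turned from -3.32 to 0.45. Without the highest cell of each class it was -0.39, so the change of sign rested on the cell at 172 RPKM, while the value stayed short of 2-fold. Adra2a stayed under 1 RPKM in all 36 glucagon-led cells and all 17 PP-led cells of the same rule.

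The 2 somatostatin receptors with somatostatin-cell values also had more cells under that rule. Sstr1 reached 1 RPKM in 6 of 24 somatostatin-led cells (25.0%, 9.77 to 46.7%) with a mean of 4.26 RPKM, or 1.52 RPKM without the highest cell, and in 0 of 17 PP-led cells. Sstr3 did so in 7 of 24 (29.2%, 12.6 to 51.1%) with a mean of 8.48 RPKM, and in 4 of 17 PP-led cells with a mean of 13.5 RPKM, which put the PP mean 0.45 above that of insulin cells on the log2 scale instead of 0.95 below. The highest PP-led cell held 133 RPKM, and without the highest cell of each class the PP-led mean was 6.00 RPKM and the difference -0.56. Sstr2 was again listed at 0 in every somatostatin-led cell.

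**Figure D2:**
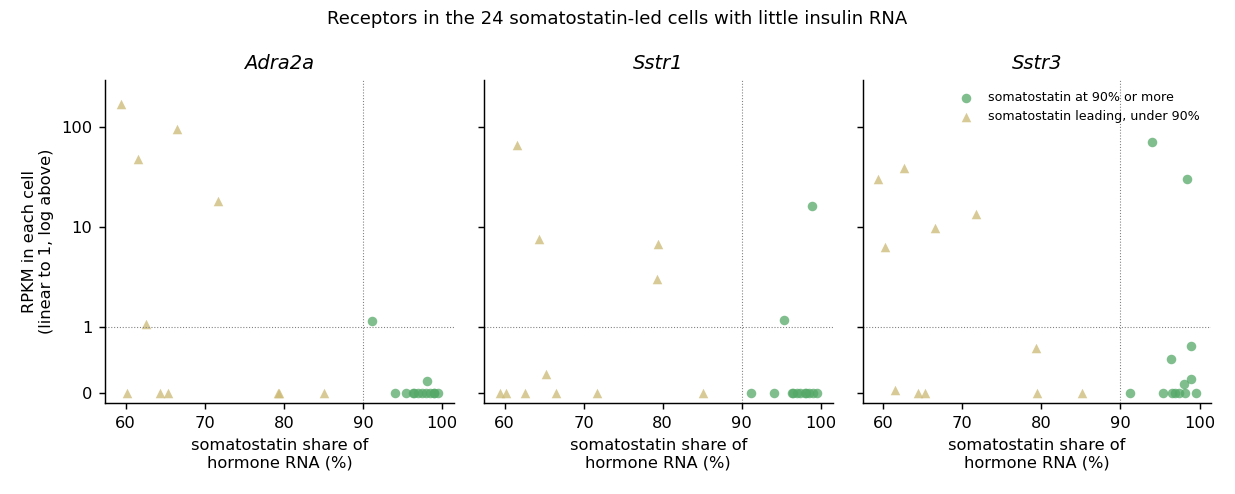
Adra2a, Sstr1 and Sstr3 in the 24 somatostatin-led cells with under 10% insulin RNA. The horizontal axis is the somatostatin share of hormone RNA in percent, the vertical axis is RPKM (linear up to 1, logarithmic above), circles are cells at 90% or more and triangles are the 11 cells below 90%. The 4 Adra2a values from 18.1 to 172 RPKM are all triangles, and the highest circle is at 1.14 RPKM.

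Galr1 had the highest single values of the 8 receptors and, among the 3 common in insulin cells, the largest part of its sum in the top 10% of cells. Galr1 (Entrez ID 14427), a receptor for the sympathetic peptide galanin, reached 1 RPKM in 147 of 395 insulin cells, or 37.2% (32.4 to 42.2%). Values ran from 0 through a median of 0 to 350 RPKM, with a mean of 12.2 RPKM, 11 cells above 100 RPKM and 77.6% of the sum in the top 10% of cells, against 64.3% for Adra2a and 60.3% for Sstr3. Among cells at the cutoff the median was 12.1 RPKM, against 8.96 for Adra2a and 8.60 for Sstr3. Galr1 was listed at 0 in all 33 glucagon and all 13 somatostatin cells, and counts of 0 of these sizes allow shares up to 9.09% and 23.1%. In PP cells it was found in 2 of 11 (18.2%, 2.28 to 51.8%), at 12.3 and 4.45 RPKM, giving a log2 difference of -2.38 from insulin cells. The cell at 12.3 RPKM was among those with markers of another cell type, whose part in the value was not tested, and without such cells 1 of 7 PP cells (14.3%) had Galr1. The insulin share was 43.4% in full-precision and 29.0% in rounded columns, whereas the means ran the other way, 10.0 and 15.0 RPKM. At 250000 reads, Galr1 had a read in 44.8% and 29.8% of insulin cells in these sets.

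Npy1r (Entrez ID 18166, chromosome 8, 66697149 to 66706800, plus strand), a receptor for neuropeptide Y and peptide YY, was above 0 in 2 of 622 cells. An insulin cell held 0.527 RPKM, and a mixed cell with 57.9% glucagon and 42.1% insulin held 20.5 RPKM. No single-hormone cell reached the cutoff.

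**Figure D3:**
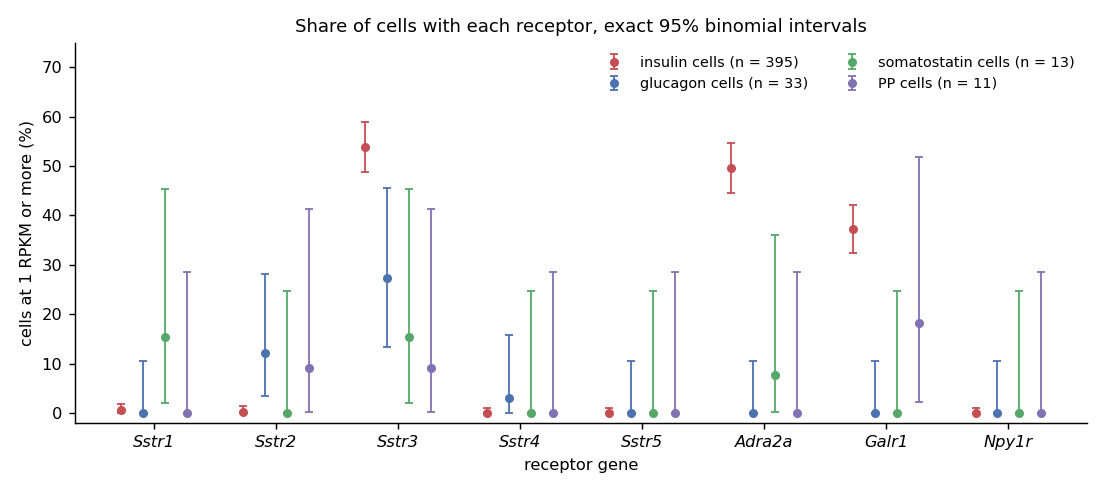
Share of cells at 1 RPKM or more for each of the 8 receptors. The vertical axis is percent of cells, points are the 4 hormone classes and bars are exact 95% binomial intervals, which cover counting error only. In insulin cells Sstr3, Adra2a and Galr1 stand at 53.9%, 49.6% and 37.2%, and each of the other 5 receptors is below 1%.

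Few of the 8 receptors were high enough to compare between classes. A gene was compared when its mean reached 1 RPKM in either class, and a 2-fold difference of class means with the pseudocount was counted. Of 8 receptors, 4 were compared between glucagon and insulin cells, with 1 higher (Sstr2) and 2 lower (Adra2a and Galr1) in glucagon cells, while 10.7% of 12665 genes were higher and 22.6% lower. Of the 4 compared between somatostatin and insulin cells, 1 was higher (Sstr1) and 2 lower (Adra2a and Galr1), against 20.0% and 29.1% of 12675 genes. Of the 3 compared between PP and insulin cells, 0 were higher and 2 lower (Adra2a and Galr1), against 16.0% and 33.2% of 12721 genes. Between somatostatin and glucagon cells 3 were compared, with 1 higher (Sstr1) and 1 lower (Sstr2) in somatostatin cells, against 28.2% and 25.9% of 12200 genes. Receptors that pass the 1 RPKM filter in 1 class only must differ to some degree, the 3 comparisons with insulin cells share those cells, and the median log2 difference over all genes was -0.20, -0.11, -0.39 and 0.09 in the 4 comparisons. Without the highest cell of each class neither Sstr1 nor Sstr2 was high enough to compare.

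Most insulin cells had at least 1 of the receptors. At 1 RPKM, 329 of 395 insulin cells (83.3%, 79.2 to 86.8%) had 1 or more, against 12 of 33 glucagon cells (36.4%, 20.4 to 54.9%), 5 of 13 somatostatin cells (38.5%, 13.9 to 68.4%) and 4 of 11 PP cells (36.4%, 10.9 to 69.2%). In insulin cells 147 had 1 receptor, 134 had 2, 48 had 3 and 66 had none. No somatostatin or PP cell had more than 1, and 2 glucagon cells had 2. The classes also differed in the median number of genes at 1 RPKM per cell. It was 5259 in insulin, 4576 in glucagon, 4371 in somatostatin and 3798 in PP cells, and its part in the class shares was not tested.

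In insulin cells Sstr3 was found with Adra2a or with Galr1 about as often as the product of their shares gives. Adra2a and Galr1 were found together more often than their product. Sstr3 and Adra2a were found together in 108 insulin cells, against 105.7 from the product of their single shares, and Sstr3 and Galr1 in 82, against 79.3. Adra2a and Galr1 were found together in 85, against 72.9, and Galr1 was present in 43.4% of cells with Adra2a and in 31.2% of cells without it. Within the column sets, Adra2a and Galr1 had 58 cells against 52.0 in full-precision and 27 against 22.0 in rounded columns. Sstr3 and Adra2a had 75 against 68.5 in full-precision but 33 against 37.8 in rounded columns, gaps of opposite sign. All 3 receptors were present in 47 cells (11.9%) against 39.3 from the product, and none of the 3 in 67 (17.0%) against 57.6. In full-precision columns these were 36 against 29.7 and 34 against 25.8, and in rounded columns 11 against 11.0 and 33 against 33.2, so the excess lay in the full-precision columns. Pearson's r of log2(RPKM + 1) over the 395 cells was -0.03, -0.02 and 0.08 for the 3 pairs, as a description of cells that differ in depth and number of genes.

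**Figure D4:**
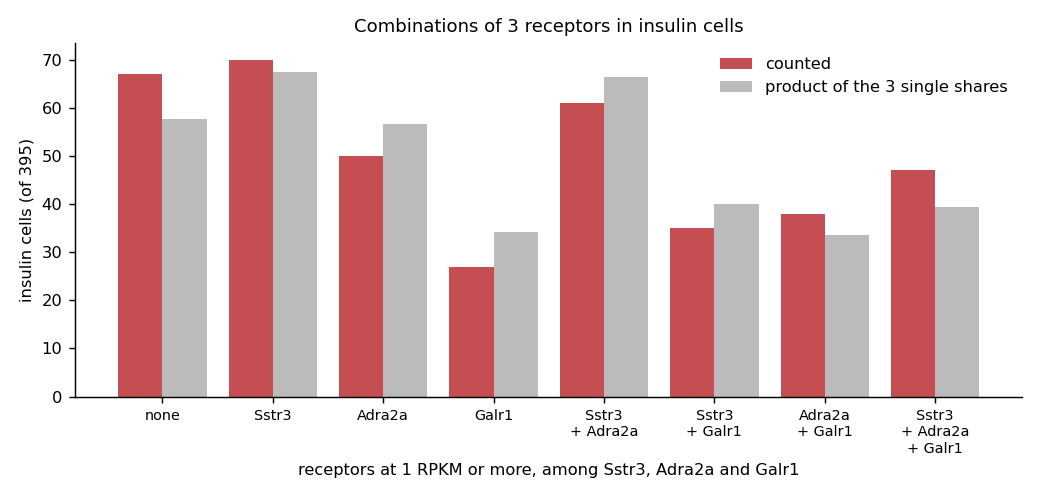
Insulin cells by combination of Sstr3, Adra2a and Galr1 at 1 RPKM or more. Red bars count cells of 395, and grey bars give the number from the product of the 3 single shares. The counts for none of the 3 (67 against 57.6) and for all 3 (47 against 39.3) are above the product, and Galr1 alone (27 against 34.1) is below it.

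The share of insulin cells with a receptor moved with the number of genes in the cell. Insulin cells were parted into 4 near-equal bins by gene number. From the bin with the fewest genes (1099 to 4150) to that with the most (5880 to 9240), the share with Galr1 was 17.0%, 35.7%, 48.0% and 48.5%, and that with Adra2a 34.0%, 45.9%, 55.1% and 63.6%. Sstr3 was at 51.0%, 49.0%, 50.0% and 65.7%, with no step before the last bin. The column set moved with the bin, since full-precision columns gave 11 of 100 cells in the lowest and 91 of 99 in the highest bin. Mean levels did not follow the shares: Galr1 was at 15.6 RPKM in the lowest and 10.0 RPKM in the highest bin, and Sstr3 at 13.2 and 8.37 RPKM. The part of gene number in the shares was not tested.

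**Figure D5:**
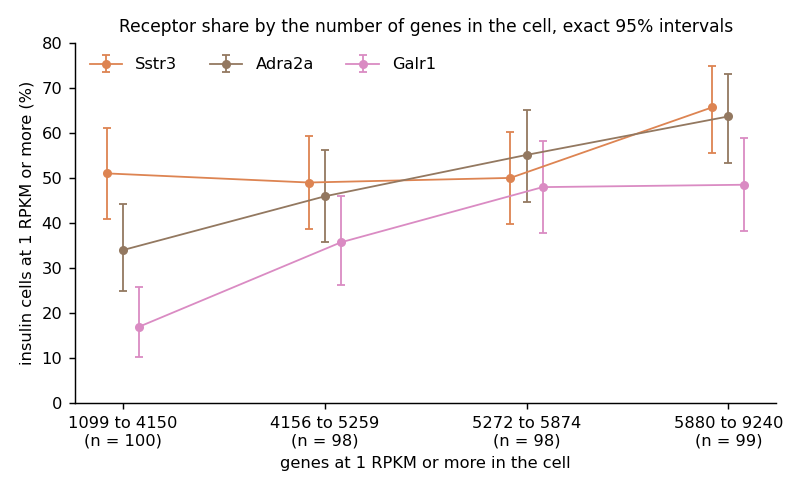
Share of insulin cells with Sstr3, Adra2a or Galr1 by bin of the number of genes in the cell. The vertical axis is percent of cells at 1 RPKM or more, the horizontal axis gives the gene range and number of cells of each bin, and bars are exact 95% binomial intervals. Galr1 runs from 17.0% to 48.5% and Adra2a from 34.0% to 63.6%, while Sstr3 stays at 49.0 to 51.0% until the last bin.

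In mixed cells the shares differed with the pair of leading hormones. The 65 cells led by insulin and glucagon had Adra2a in 35 (53.8%, 41.0 to 66.3%), Galr1 in 21 (32.3%, 21.2 to 45.1%) and Sstr3 in 31 (47.7%, 35.1 to 60.5%). The 28 cells led by insulin and somatostatin had Adra2a in 14 (50.0%), Galr1 in 15 (53.6%), Sstr3 in 17 (60.7%) and Sstr1 in 7 (25.0%). In the 23 insulin and PP cells Adra2a was present in 13 (56.5%), Galr1 in 6 (26.1%) and Sstr3 in 16 (69.6%). The 8 glucagon and PP cells had neither Adra2a nor Galr1 and had Sstr3 in 3. The 16 somatostatin and PP cells had Adra2a in 5 (31.2%, 11.0 to 58.7%), Sstr1 in 4 (25.0%) and Sstr3 in 7 (43.8%), with Galr1 at no more than 0.699 RPKM. Whether a mixed cell was 1 cell or 2 captured together was not tested.

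Some genes for the ligands and for noradrenaline synthesis differed between classes. Of 10 such genes outside the class hormones, 5 were compared between glucagon and insulin cells, with 1 higher and 3 lower and a median log2 difference of -1.28, where 10.7% of all genes were higher and 22.6% lower and the median was -0.20. These all-gene values apply to each glucagon count given for the lists that follow. In every list, a gene that passed the 1 RPKM filter in 1 class only could differ in 1 direction only. The 3 lower genes here, Gal, Npy and Th, passed it through insulin cells only. Gal gave the median, with log2 differences of -1.81 in full-precision and 0 in rounded columns. Pyy, which encodes peptide YY, was at 10753 RPKM in glucagon, 53973 in somatostatin and 71193 in PP cells against 461 RPKM in insulin cells. Npy reached 1 RPKM in 17 of 395 insulin cells with a mean of 21.3 RPKM, against 1 of 33 glucagon cells and no somatostatin or PP cell. Th, the rate-limiting enzyme of catecholamine synthesis, did so in 86 insulin cells and 1 glucagon cell, with means of 10.5 and 0.0739 RPKM. Ddc, the next enzyme, had means of 138 RPKM in insulin, 80.5 in glucagon and 0.672 in somatostatin cells. Dbh, which makes noradrenaline, and Gal, which encodes galanin, were at 1 RPKM in 0 and 3 insulin cells.

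Other receptors of the same families had few values above 0. None of 8 (Adra2b, Adra2c, Galr2, Galr3, Npy2r, Npy4r, Npy5r and Npy6r) reached a class mean of 1 RPKM, and Galr3 was the most frequent, in 21 of 395 insulin cells with a mean of 0.309 RPKM. Of 6 stimulatory and Gq-coupled adrenergic receptors, 2 were compared between glucagon and insulin cells and both were higher. Adrb1, a receptor that raises cyclic AMP, was present in 8 of 33 glucagon and 1 of 395 insulin cells, and Adra1a was present in 1 glucagon cell. Of 32 further Gi/o-coupled receptors, 7 were compared, with 2 higher and 4 lower and a median of -1.08. The adenosine receptor Adora3 was in 199 of 395 insulin cells with a mean of 13.0 RPKM, against 2 of 33 glucagon, 0 of 13 somatostatin and 1 of 11 PP cells. The nociceptin receptor Oprl1 was in 6 of 33 glucagon cells with a mean of 9.61 RPKM and in no insulin cell, and its log2 difference was 0.98 in full-precision and 4.30 in rounded columns. Values of Hcar2 in glucagon and of P2ry13 in somatostatin cells, 5.16 and 33.2 RPKM on average, came from 1 cell each.

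The transducers downstream of the receptors were measured in every class. Of 5 Gi/o alpha subunits 1 was higher and 2 lower in glucagon than in insulin cells, with a median log2 difference of -0.46. Gnai1 was at 29.5 RPKM in glucagon and 3.41 in insulin cells, Gnai2 at 28.5 and 94.8, and Gnai3 at 7.93 and 32.3 RPKM, and both column sets gave these 3 calls. Gnao1, at 27.0 and 15.7 RPKM, was short of 2-fold. In somatostatin cells Gnai1 was at 0.0889 RPKM and Gnai2 at 136 RPKM, the latter with log2 differences from insulin cells of -0.32 in full-precision and 1.21 in rounded columns. Of 15 beta and gamma subunits 10 were compared, with 2 higher and 2 lower in glucagon cells and a median of -0.01. The 2 higher were Gng11, at 36.2 against 1.49 RPKM and from 3 of 33 glucagon cells, and Gng2, at 10.5 against 1.91 RPKM. The 2 lower were Gng12 and Gng4, at 5.45 and 5.28 RPKM in glucagon cells against 174 and 52.2 RPKM in insulin cells. In somatostatin cells Gng12 was at 67.6 RPKM, with log2 differences of -0.48 in full-precision and -4.43 in rounded columns, and Gng4 was at 56.9 RPKM. Of the 4 GIRK channel genes 2 were compared. Kcnj3 and Kcnj6 were both higher in glucagon cells, at 2.41 and 4.19 RPKM against 0.165 and 1.04 RPKM, each in 6 of 33 cells. The log2 difference of Kcnj6 was 0.71 in full-precision columns, short of 2-fold, and 1.91 in rounded columns.

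Adenylyl cyclases and RGS genes had members on both sides in glucagon cells. Of 10 cyclases 3 were compared with insulin cells, with 2 higher and 1 lower and a median of 1.21. The median was the value of Adcy1, at 1.36 RPKM in glucagon cells and detected in 3 of 33. Its log2 difference was 1.77 in full-precision and 0.19 in rounded columns. Adcy6 was at 7.02 against 2.28 RPKM and Adcy9 at 4.56 against 10.5 RPKM. For Adcy9 the log2 difference was -1.30 in full-precision columns and -0.92, short of 2-fold, in rounded columns. Of 20 RGS genes 11 were compared, with 1 higher and 3 lower and a median of 0.40. The higher one was Rgs10, at 5.52 against 2.14 RPKM and from 2 of 33 glucagon cells, with log2 differences of -0.30 in full-precision and 1.42 in rounded columns. Rgs11, at 8.51 against 42.6 RPKM, was among the lower ones. So was Rgs1, at 13.2 RPKM from 1 glucagon cell against 33.3 RPKM from 13 of 395 insulin cells. The remaining lower one was Rgs5, at 10.8 RPKM from 3 of 33 glucagon cells against 23.5 RPKM from 15 of 395 insulin cells. Its log2 difference was -3.54 in full-precision but 4.35 in rounded columns. Rgs4, at 164 against 89.2 RPKM, was short of 2-fold. In somatostatin cells Rgs17 was at 25.3 RPKM against 4.27 RPKM in insulin cells, in both sets past 2-fold.

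Of 7 receptor kinases and arrestins 5 were compared between glucagon and insulin cells, with 1 higher and 2 lower and a median of 0.19. The higher one was Grk6, at 7.72 against 2.61 RPKM, with log2 differences of 2.08 in full-precision and -1.52 in rounded columns. Against insulin cells, 5 of the 6 compared were lower and 1 higher in somatostatin cells, and 3 of the 5 were lower in PP cells, with medians of -1.56 and -1.73, where 29.1% and 33.2% of all genes were lower with medians of -0.11 and -0.39. For somatostatin cells, Grk3, Grk5, Grk6 and Arrb2 passed the filter through insulin cells only, so they could not come out higher. Grk3 and Grk5 did the same for PP cells. The gene higher in somatostatin cells was Grk4, at 2.87 RPKM and from 1 of 13 cells. Grk3 was at 12.2 RPKM in insulin cells and at 0.441 and 0.0898 RPKM in somatostatin and PP cells. In glucagon cells it was at 14.1 RPKM, with log2 differences of -0.70 in full-precision and 1.5 in rounded columns. Grk2 was at 9.36 RPKM in insulin cells and at 2.76, 1.71 and 1.66 RPKM in glucagon, somatostatin and PP cells.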

How the data were processed

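RNA was measured in 622 single islet cells, and the authors deposited 1 table of RPKM values with a column per cell and genes named by Entrez ID. CASAVA 1.8.2, FastQC and the build GRCm38 (mm10) are named in the submitters' processing notes. Which aligner, counter and gene models were used is not given in the sources used here. Symbols and positions came from RefSeq, and overlapping genes and strands from GENCODE, both on GRCm38. Whole reads were recovered from ratios of the deposited RPKM values: 2998 of 3000 genes tried gave a unit of 1 read, 11 of 13 mitochondrial genes set the same scale, and 99.995% of 131877 values in rounded columns were whole within 0.05 reads. Reads served for depth and thinning only, and all comparisons used RPKM.

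The members and lists were chosen with earlier results of these data known. Cells needed 1000 genes at 1 RPKM, and 29 cells fell short. Cells with no hormone at 90% were the doublet candidates, left out of class comparisons, and no other doublet caller was run. A receptor was detected at 1 RPKM. Class means were compared as log2 of (mean + 1) over (mean + 1) for genes at 1 RPKM or more in either class, with 2-fold as the threshold and no test, since all cells are 1 sample. Shares carry exact Clopper-Pearson 95% intervals, and a count of 0 the limit of 3 counts. Named genes were all members, the 3 genes with the highest Pearson r for each member in at least 20 cells, and from 10 pathway lists genes among the 2 highest and 2 lowest differences at 5 RPKM or more in either class, mainly for glucagon against insulin cells. Adrb1, Adra1a, Galr3, Kcnj3, Kcnj6, Gal, Dbh, Adcy1, Grk4, Grk5, Arrb2, Ddc and Rgs5 in glucagon cells and Grk6 in somatostatin cells fall outside that rule and were named after their values were seen. The scripts ran on Python 3.11.15 with numpy 2.4.6, pandas 2.3.3, scipy 1.17.1 and matplotlib 3.10.9, and the recovery of reads and the ratios were tested on simulated data. Alternatives covered the detection cutoff, the hormone threshold, the cell filter, ghrelin in the hormone sum, the pseudocount, the low-value filter, log means, rescaling without hormone and mitochondrial genes, the column sets, thinning, the highest cell, cells with other markers and, chosen after the data were seen, the leading hormone with and without the highest cell.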

Additional observations from a re-analysis of the deposited data

How the results depend on the processing

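The share of cells with a receptor moved out of its interval with the detection rule: any value above 0 gave 94.4% of insulin, 75.8% of glucagon and 69.2% of somatostatin cells, a cutoff of 5 RPKM gave 65.3% of insulin cells, and 250000 reads with at least 1 read of the 5 receptors with recovered reads gave 87.7%. It was 78.7% of insulin cells with no filter on cells, 18.8% of glucagon cells in rounded columns, and 0% of the 1 somatostatin cell left at 99% of 1 hormone. Shares over all genes were computed at the main settings only, so the counts of receptors that follow have no such share beside them. With somatostatin-led cells, 1 receptor was lower than in insulin and 2 were higher than in glucagon cells, and Adra2a turned to 0.45 above insulin cells. The same classes without the highest cell put Adra2a at -0.39, with 1 receptor lower than in insulin cells, 0 higher in glucagon than in insulin cells, and 2 higher and 0 lower in somatostatin than in glucagon cells. Sstr1 and Sstr2 gave 0 higher receptors, in place of 1, for glucagon and somatostatin against insulin cells at 99% of 1 hormone, a pseudocount of 10, log means, rounded columns and without the highest cell, and for somatostatin against glucagon cells under these except rounded columns, and also when rescaled. Lower receptors for somatostatin against glucagon cells were 0 with a pseudocount of 10, log means, rounded columns or without the highest cell. Lower receptors against insulin cells numbered 1 in glucagon, 1 in somatostatin and 0 in PP cells with a pseudocount of 10, and 1 (Galr1) in PP cells at 75% of 1 hormone, where Adra2a was at -0.51. The cause was not tested. At the median depth 1 read is 0.542 RPKM of Sstr2, 0.311 of Galr1, 0.235 of Adra2a, 0.208 of Sstr1 and 0.134 of Sstr3. No paired analysis was possible because all cells belong to 1 group without shared replicate numbers.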

Other observations

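Genes whose levels varied most like those of a receptor over the 452 single-hormone cells were named among 13370 genes, by Pearson's r of log2(RPKM + 1), a description of cells that share depth and class differences. For Adra2a they were G6pc2 (r = 0.33), which encodes an islet glucose-6-phosphatase, Ero1b (0.31), an endoplasmic reticulum oxidase, and the prolactin receptor Prlr (0.30). For Galr1 they were Prlr (0.30), the prohormone convertase Pcsk1 (0.27) and D330050I16Rik (0.27). For Sstr3 the values were lower, with Slc44a3 (0.20), Fam234a (0.19) and Denn2b (0.19). Prlr had a mean of 50.7 RPKM in insulin cells and of 0.381, 0.508 and 0.136 RPKM in glucagon, somatostatin and PP cells. The other 5 receptors were in fewer than 20 single-hormone cells and were not searched.

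Over both column sets, insulin cells with and without a receptor were close in mitochondrial share. The median was 10.4% in cells with Galr1 and 11.7% in the rest, 10.6% and 11.4% for Adra2a, and 11.2% and 11.0% for Sstr3. In full-precision columns the medians were further apart for Galr1 (10.7% and 13.2%) and Adra2a (11.1% and 13.0%), and were 11.8% and 11.5% for Sstr3. In rounded columns they were 9.10% and 10.4% for Galr1, 9.44% and 10.5% for Adra2a, and 10.2% and 9.75% for Sstr3. Median reads were lower in cells with Galr1, 937183 against 1189066. The full-precision columns, which are shallower, held 98 of the 147 cells with Galr1 and 226 of all 395 insulin cells. Within the sets the median reads were 779537 against 830809 in full-precision and 1699329 against 1672741 in rounded columns. The part of the column set was not tested.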
